A study of Mus musculus with 354 samples.

Results

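Pdk4, Gadd45b, Hilpda, Sox9 and Htra1 are 5 of the 14125 genes measured above a filter on dim probe sets in mouse liver. They were chosen by their own log2 values, which were far above the rest in the same animals of 1 strain, AU8049, so their values in that strain are given as a description with no test. The probe sets annotated to the 5 symbols were used, 1 each for Pdk4, Gadd45b, Hilpda and Htra1 and 2 for Sox9, and all 5 genes passed the filter. The data were 354 livers on Affymetrix HT_MG-430 PM arrays, 1 array per male mouse of the Collaborative Cross, a panel of inbred strains derived from several founders. There were 175 Tolvaptan animals and 179 Control animals of 45 strains, and a group is 1 strain under 1 treatment, with 4 animals in 85 of the 90 groups and 2 or 3 in the rest. Tolvaptan blocks the vasopressin V2 receptor, and the Control animals were given vehicle. Livers were taken after 24 h from mice that were about 8 to 10 weeks old when dosed and fasted for about 18 h, in both treatments. The dose label carries no unit and was not used.

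Pdk4 is a mitochondrial kinase that phosphorylates and switches off the pyruvate dehydrogenase complex, which spares glucose in fasting, when PPAR-alpha, FOXO factors and glucocorticoids raise its transcription in liver. Gadd45b belongs to a family of small stress-induced proteins that bind kinases of the p38 and JNK pathways. Hilpda is a lipid droplet protein that inhibits the triglyceride lipase Pnpla2 and is induced by hypoxia and by fatty acids. Sox9 is a transcription factor of bile duct cells that injured hepatocytes can also switch on. Htra1 is a secreted serine protease that cleaves matrix proteins and has been linked to TGF-beta signalling.

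Promoters are shown because the members' levels moved together in single animals. They are the RefSeq windows from 250 bases before to 50 bases after a gene's start in GRCm38.p6, 5′ to 3′ on the gene's strand, and are not mapped from the arrays. The RefSeq table held promoters for 4 of the 5 members, and Sox9 is named only. Pdk4 lies at chr6:5496229-5496528 on the minus strand, Gadd45b at chr10:80929841-80930140 on the plus strand, Hilpda at chr6:29272376-29272675 on the plus strand (the second of its 2 entries), and Htra1 at chr7:130935953-130936252 on the plus strand. Capitals mark matches to 6 motifs, which were chosen after the data were seen and searched on both strands. They included the hypoxia response core ACGTG, the CRE site TGACGTCA, the FOXO site GTAAACA, the TATA box TATAAA and the CCAAT box CCAAT. An AP-1-like site, TGANTCA with N for any base, was the last.
Pdk4: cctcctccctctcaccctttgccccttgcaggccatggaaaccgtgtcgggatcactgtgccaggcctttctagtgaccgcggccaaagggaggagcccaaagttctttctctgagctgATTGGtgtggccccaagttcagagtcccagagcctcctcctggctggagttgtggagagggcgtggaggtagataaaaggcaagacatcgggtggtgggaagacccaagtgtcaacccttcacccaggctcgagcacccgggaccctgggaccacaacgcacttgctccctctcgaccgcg
Gadd45b: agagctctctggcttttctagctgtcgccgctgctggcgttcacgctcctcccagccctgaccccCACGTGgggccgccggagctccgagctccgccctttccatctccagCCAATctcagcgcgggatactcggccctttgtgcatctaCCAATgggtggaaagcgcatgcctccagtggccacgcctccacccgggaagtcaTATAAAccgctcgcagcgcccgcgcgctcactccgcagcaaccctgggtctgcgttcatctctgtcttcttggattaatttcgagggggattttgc
Hilpda: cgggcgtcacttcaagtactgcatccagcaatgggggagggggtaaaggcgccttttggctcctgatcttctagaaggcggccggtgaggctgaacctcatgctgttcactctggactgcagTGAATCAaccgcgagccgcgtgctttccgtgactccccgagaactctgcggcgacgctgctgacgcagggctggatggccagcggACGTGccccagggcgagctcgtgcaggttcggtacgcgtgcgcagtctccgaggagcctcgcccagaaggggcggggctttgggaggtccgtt
Htra1: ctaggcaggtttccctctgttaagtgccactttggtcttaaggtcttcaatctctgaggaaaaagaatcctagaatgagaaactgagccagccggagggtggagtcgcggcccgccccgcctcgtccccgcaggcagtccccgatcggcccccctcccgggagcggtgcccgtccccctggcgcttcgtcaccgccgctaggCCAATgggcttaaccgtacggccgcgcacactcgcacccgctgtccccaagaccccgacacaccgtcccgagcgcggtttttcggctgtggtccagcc

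The CCAAT box occurred once in Pdk4, on the opposite strand, at 2 places in Gadd45b and once in Htra1, and it is held by 37.4% of all 32851 promoters of that length. The hypoxia response core was found in Hilpda and in Gadd45b, where its matches on the 2 strands overlap in 1 palindrome, and 19.6% of all promoters hold it. Hilpda also held the AP-1-like stretch TGAATCA, where 7.81% of promoters match TGANTCA, and Gadd45b a TATA box (13.6%). The FOXO site (3.65%) and the CRE site (1.79%) had no match in any of the 4 windows. A match is a stretch of letters and no measured binding.

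Arrays were first checked against their labels. Over 500 probe sets that separate the strains, 34 arrays, 7 Tolvaptan and 27 Control, had a correlation of at most 0.33 with the profile of the strain on their label, and the remaining arrays had at least 0.65. None of the 34 was an array of AU8049 or OR3393, and 1 was OR5119 Control animal 364. Results are given with all arrays, and again without these where that changes them. The mean of 7 hepatocyte markers, Alb and Apoa1 among them, lay between 12.7 and 13.1 on the log2 scale in the 8 animals of AU8049 and the 4 Tolvaptan animals of OR3393, against a typical array median of 2.89. No label says whether animals of a strain shared a cage or dosing day.

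In AU8049 all 5 genes were high in 2 of the 4 Tolvaptan animals. Pdk4 measured 12.06, 11.62, 6.39 and 5.36 in Tolvaptan animals 345, 346, 347 and 348, against 3.86, 5.85, 7.27 and 4.05 in Control animals 341, 342, 343 and 344 (log2 level). Gadd45b measured 11.90, 11.47, 4.60 and 5.16 in the same order of Tolvaptan animals, against 4.20, 4.39, 5.29 and 5.25 in the Control animals. Hilpda measured 10.46, 9.67, 4.86 and 4.40 under Tolvaptan, against 4.45, 4.25, 4.75 and 4.47 under Control. Animals 345 and 346 lay far above the other 6, and animals 347 and 348 lay within or close to the Control range.

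Sox9 and Htra1 followed the same animals from a base near the array median. Sox9 measured 8.33, 7.47, 2.79 and 3.12 in the Tolvaptan animals, against 2.59, 2.80, 3.02 and 2.64 in the Control animals. The second Sox9 probe set gave 8.34, 7.35, 2.50 and 2.87 under Tolvaptan, against 2.45, 2.47, 2.62 and 2.20 under Control. Htra1 measured 7.90, 8.05, 2.86 and 3.30 under Tolvaptan, against 2.86, 3.43, 3.03 and 3.01 under Control. Outside the 2 high animals, both genes were close to the array median of 2.89, where a level is near background, so the size of their rise has no exact value.

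Group means in AU8049 hide this split. The mean differences over 4 Tolvaptan and 4 Control animals were 3.60 for Pdk4, 3.50 for Gadd45b, 2.87 for Hilpda, 2.66 for Sox9 and 2.45 for Htra1 on the log2 scale, carried by 2 of the 4 Tolvaptan animals. The values for Sox9 and Htra1 start from levels near background. All 5 were among the 5.4% of genes called in this strain by limma, which the choice of members fixes. Against the mean of the 4 Control animals, animal 345 alone was 6.80 higher in Pdk4 and 7.11 higher in Gadd45b. Both high animals were in scan 3, as were animal 347 and Control animals 341, 342 and 343.

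**Figure D1:**
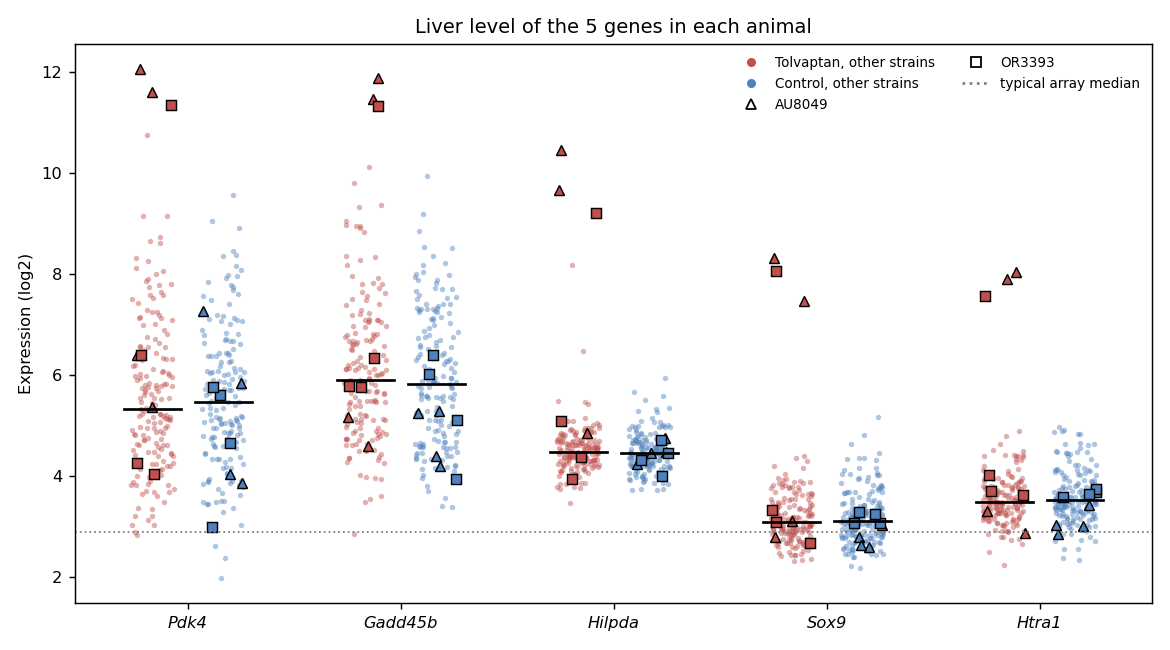
Expression level (log2) of each gene in 354 animals, Tolvaptan left of Control in each pair, with bars at the median of the animals outside AU8049, triangles for AU8049, squares for OR3393 and a dotted line at the typical array median of 2.89. In every gene 3 Tolvaptan symbols stand at the top, those of AU8049 animals 345 and 346 and of OR3393 animal 477.

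Outside AU8049, 1 animal was high in all 5 genes. This was Tolvaptan animal 477 of OR3393. Its Pdk4 level was 11.35, against 6.40, 4.05 and 4.26 in OR3393 Tolvaptan animals 475, 476 and 478 and 5.60, 5.76, 2.99 and 4.66 in the OR3393 Control animals. Its Gadd45b level was 11.32, against 5.77, 6.34 and 5.79 in the other Tolvaptan animals and 6.39, 5.12, 3.95 and 6.02 in the Control animals. No other animal of the strain came within 4 units of its value in either gene.

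The same animal was highest of all 346 in the other members. Hilpda was 9.21 in animal 477, against 4.37, 5.10 and 3.95 in its Tolvaptan strain mates and 4.45, 4.71, 4.0 and 4.32 in the Control animals. Sox9 was 8.06, against 3.33, 2.68 and 3.10 in the Tolvaptan strain mates and 3.07, 3.29, 3.07 and 3.25 in the Control animals. Htra1 was 7.57, against 4.01, 3.70 and 3.62 in the Tolvaptan strain mates and 3.69, 3.59, 3.75 and 3.65 in the Control animals. The array of animal 477 was in scan 5 and correlated at 0.67 with its labelled strain. This is above the limit of 0.5 but lower than the 0.90 or more of the other OR3393 arrays. AU8049 animals 345 and 346 correlated at 0.77 and 0.79 with their labelled strain, against 0.92 or more in the other AU8049 arrays.

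A limit was set for each gene at the lower of the 2 highest AU8049 values, 11.62 for Pdk4, 11.47 for Gadd45b, 9.67 for Hilpda, 7.47 for Sox9 and 7.90 for Htra1. Of 171 Tolvaptan animals and 175 Control animals outside AU8049, only Sox9 in animal 477 reached it, so no animal reached it for 3 or more members. Animal 477 was just below the limit in the other 4 genes. With the limit halfway between that value and the highest AU8049 Control value, counts rose unevenly. Gadd45b then had 16 animals at or above 8.38, 11 Tolvaptan and 5 Control. Pdk4 had 3 at or above 9.44, Tolvaptan animals 477 and 368 and AU8005 Control animal 402, Hilpda had the same 2 Tolvaptan animals, and Sox9 and Htra1 had animal 477 alone.

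OR5119 Tolvaptan animal 368 shared part of the pattern. Its Pdk4 level was 10.75, against 6.03, 4.85 and 5.78 in the other OR5119 Tolvaptan animals and 3.78, 6.0, 6.08 and 5.87 in the Control animals. Its Hilpda level was 8.19, against 4.37, 4.48 and 5.01 in the other Tolvaptan animals and 4.62, 4.49, 4.71 and 4.46 in the Control animals. Gadd45b at 5.72, Sox9 at 3.26 and Htra1 at 3.76 lay within the range of the strain. Its array, in scan 1, correlated at 0.65 with the labelled strain, the lowest of the arrays above 0.5.

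The rest of the transcriptome was set beside the members, as a description chosen after the data were seen. Each animal's difference from the Control mean of its own strain was taken over the 14120 other genes. Animal 477 correlated at 0.78 with AU8049 animal 345 and at 0.79 with animal 346 across genes. Animal 368 correlated with them at 0.47 and 0.51. The other 344 animals outside AU8049 reached at most 0.36 and 0.41, with medians of -0.01 and -0.01. Genes are not independent replicates, and a Control animal was compared with the mean of the other Control animals of its strain.

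**Figure D2:**
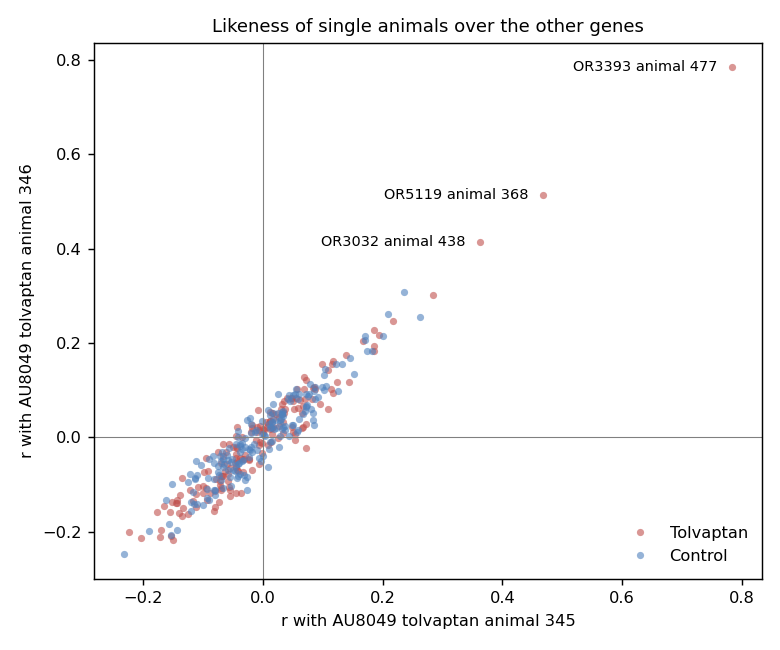
Pearson r across 14120 genes of each of 346 animals outside AU8049 with animal 345 (x axis) and animal 346 (y axis). Each animal is its difference from its strain's Control mean, with a Control animal's own value left out. OR3393 animal 477 stands alone at 0.78 and 0.79, followed by OR5119 animal 368 and OR3032 animal 438, and the remaining animals form 1 cloud around 0.

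Counts of single genes also put animal 477 first and animal 368 second among the animals outside AU8049. A level at least 2 higher than the Control mean (log2) was measured for 1.28% of the other genes in animal 345, 1.08% in animal 346, 1.3% in animal 477 and 1.07% in animal 368. In both 345 and 346, which share their Control animals, 113 genes were at least 2 higher, and 85 of these were also at least 2 higher in animal 477 and 37 in animal 368. Any other animal outside AU8049 had at most 18 of the 113, with a median of 1. A level at least 2 lower was measured for 1.64% of genes in animal 345, 1.28% in animal 346, 1.23% in animal 477 and 1.72% in animal 368. Of 131 genes at least 2 lower in both 345 and 346, 82 were also lower in animal 477 and 46 in animal 368, against at most 17 in any other animal.

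Large changes shared by the 3 animals are given next, picked after their values were seen. Cdkn1a, the cell cycle inhibitor p21, was 5.30, 5.14 and 5.12 higher than its strain's Control mean in animals 345, 346 and 477. Ddit4, an inhibitor of mTORC1, was 4.49, 5.13 and 4.84 higher, and Chac1, a glutathione-degrading enzyme of the ATF4 pathway, was 3.64, 3.51 and 4.52 higher. The transcription factor Klf6 was 5.04, 3.77 and 4.43 higher. Genes of other roles were as high, the adaptor Grb10 by 5.0, 4.43 and 3.97, the cytochrome P450 Cyp4f39 by 4.11, 4.29 and 4.50, the glycogen-targeting phosphatase subunit Ppp1r3g by 4.43, 3.39 and 5.29 and Ttll8 by 3.59, 3.38 and 4.45. Among genes that were lower, the antioxidant regulator Nfe2l2 stood at -4.18, -4.40 and -4.35, and the pantetheinase Vnn1, a PPAR-alpha target, at -4.46, -4.04 and -4.36. In animal 368 Cdkn1a was 3.98 and Chac1 3.58 higher, while Nfe2l2 differed by -0.29.

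Relatives of the members were read in the same 3 animals, from lists of their pathways. Of all 14125 genes, 5.49%, 5.66% and 5.66% were at least 1 higher in animals 345, 346 and 477, and 9.13%, 7.43% and 8.23% at least 1 lower. In the pyruvate dehydrogenase list, 2 of 9 tested genes were at least 1 higher in each of animals 345, 346 and 477, Pdk4 and Pdp2, a phosphatase that acts against the kinases, which was 1.40, 1.37 and 1.71 higher. Pdk1, another kinase of the complex, stood at -0.84, -0.62 and -1.0. The other Gadd45 genes were high too, Gadd45a by 5.05, 3.88 and 5.85 and Gadd45g by 3.87, 3.69 and 4.23. In the immediate early and stress list, which holds Gadd45a and Gadd45b, 13 of 15 genes were at least 1 higher in each animal, with medians of 3.27, 1.85 and 2.70, against medians of -0.05, -0.06 and -0.06 over all genes.

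Hypoxia-inducible genes had list medians nearer to 0. Of 22 tested, Hilpda included, 4 were at least 1 higher in each of the 3 animals, with list medians of 0.24, 0.03 and 0.19. The glucose transporter Slc2a1 was 1.68, 1.47 and 1.57 higher, whereas Vegfa was 0.57, 0.41 and 0.35 higher and the lactate dehydrogenase Ldha stood at -0.21, -0.26 and -0.27. In the FOXO and glucocorticoid list, 8, 9 and 9 of 13 genes were at least 1 higher, Pdk4 included, and 1 in each animal was at least 1 lower. The kinase Sgk1 was 4.33, 3.87 and 3.05 higher and Igfbp1 2.38, 2.15 and 2.34 higher. Among the PPAR-alpha fasting genes, 1 of 13 was at least 1 higher in each animal, Pdk4 itself, and 3, 5 and 5 were at least 1 lower. Of 13 lipid droplet genes tested, 3 were at least 1 higher in each animal, Hilpda and the coat genes Plin4 and Plin5. Plin4 was 2.82, 2.91 and 2.63 higher and Plin5 1.23, 1.79 and 1.31 higher. In the same list 2, 1 and 2 genes were at least 1 lower, and the list medians were 0.06, -0.01 and 0.14.

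Most bile duct markers were not high in these animals. Of 7 tested, 1 was at least 1 higher in each of animals 345, 346 and 477, Cd24a, and the list medians were -0.14, -0.11 and -0.19. The biliary keratin Krt19 stood at -0.56, 0.06 and -0.52. Of the 15 tested genes of the HTRA and TGF-beta list, 2, 3 and 2 were at least 1 higher, Htra1 included, and 1, 2 and 1 at least 1 lower. Htra2 stood at -0.86, -1.14 and -0.86, Htra3 at -0.70, -0.68 and -0.35 and Htra4 at 0.35, 0.26 and 0.87. Kupffer cell markers had medians of -0.52, -0.64 and -1.41, with 1, 3 and 6 of 8 at least 1 lower, and hepatocyte markers had medians of 0.09, 0.03 and 0.03. Sinusoidal endothelium markers had medians of -0.57, -0.54 and -0.93, with 1, 1 and 4 of 8 at least 1 lower and 2, 1 and 1 at least 1 higher, among them Lyve1 by 2.54, 2.91 and 2.66. Fewer cells of a type and less RNA per cell cannot be told apart in bulk liver, and the part of Kupffer and endothelial cells in the members' levels was not tested.

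Array quality was read for the same animals. The spread of relative log expression, the interquartile range of an array's differences from the median array, was 0.47, 0.43, 0.49 and 0.48 in animals 345, 346, 477 and 368, against a median of 0.38 over all arrays and a highest value of 0.74. The 3′ minus 5′ signal of the actin control was 1.47, 1.45, 1.78 and 1.73, against a median of 1.78. Their part in the result was not tested.

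Over the other 44 strains, none of the 5 genes was called for an averaged effect of tolvaptan. Pdk4 averaged 5.57 ± 1.53 (SD, n = 171) in Tolvaptan animals and 5.53 ± 1.39 (SD, n = 175) in Control animals outside AU8049. Gadd45b averaged 6.09 ± 1.41 in Tolvaptan animals and 5.91 ± 1.31 in Control animals, and Hilpda 4.55 ± 0.59 and 4.48 ± 0.38. Sox9 averaged 3.17 ± 0.59 in Tolvaptan animals and 3.20 ± 0.53 in Control animals, and Htra1 3.56 ± 0.54 and 3.60 ± 0.52. The ranges of the 2 treatments overlapped almost wholly in every gene apart from the single high animals.

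The averaged differences, fitted with limma over all 14125 genes with a mean for each strain and treatment and a term for scan, were small beside this spread. Pdk4 differed by 0.05 ± 0.15 (SE, adjusted p = 0.967), with a positive difference in 21 of 44 strains. Gadd45b differed by 0.16 ± 0.12 (adjusted p = 0.757), positive in 23 strains. The Gadd45b difference was 0.284 in scans 2 to 6 (unadjusted p = 0.0425, adjusted p = 0.426, limma) and between 0.0246 without replicate 3 and 0.266 without replicate 4, none of them called. Hilpda differed by 0.06 ± 0.06 (adjusted p = 0.83), Sox9 by -0.03 ± 0.06 (adjusted p = 0.943) and Htra1 by -0.04 ± 0.05 (adjusted p = 0.89). Thus 0 of 5 were called, where limma called 78 of all genes (0.552%), 52 higher and 26 lower, and none of the 5 had an unadjusted p under 0.05 with all arrays. Without replicate 1 of every group limma called 2 genes in all, and without animal 477 it called 88. The AU8049 arrays stayed in this fit and in the single-strain, strain-dependence and Control tests below. The split between its Tolvaptan animals thus adds to the spread behind the SE and p of the 5 genes, toward fewer calls. With 1 difference per strain as the unit, where AU8049 was left out wholly, the lowest adjusted p was 0.666 (Gadd45b, limma).

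Single strains other than AU8049 gave no call for a member either. Of 220 pairs of a member and a strain 0 were called, near the share of 0.164% over all pairs of a gene and a strain. An unadjusted p under 0.05 (limma) was found in 6 pairs, and in 2 of 215 without OR3393. Differences ran between -1.76 and 1.76 for Pdk4, between -1.13 and 1.94 for Gadd45b, between -0.41 and 1.29 for Hilpda, between -0.67 and 1.12 for Sox9 and between -0.49 and 1.06 for Htra1. The highest of all 44 was OR3393 in every gene, which holds animal 477. Without the arrays off their strain, Pdk4 differences ran between -3.14 and 2.34 and Htra1 differences between -0.72 and 1.06. The highest in Pdk4 was then a strain other than OR3393. Without replicate 4 of every group Hilpda was called in OR3393, 1.84 ± 0.44 (adjusted p = 0.0225, limma). All replicate 4 arrays were in scan 1, and scans 2 to 6 gave the same difference (adjusted p = 0.0235, limma). In both, animal 477 (9.21) was the only OR3393 Tolvaptan animal with high Hilpda. The SE rests on the spread pooled over all groups, whereas the Hilpda SD over the 4 Tolvaptan animals of this strain was 2.41.

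No dependence of the difference on strain was called for any member over these 44 strains (0 of 5, adjusted p = 1, limma moderated F test, unadjusted p between 0.844 and 0.947), where 5 of all genes were called (0.0354%). The strain differences had an SD of 0.84 for Pdk4, 0.69 for Gadd45b, 0.32 for Hilpda, 0.33 for Sox9 and 0.29 for Htra1. That of Pdk4 was 1.02 without the arrays off their strain.

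**Figure D3:**
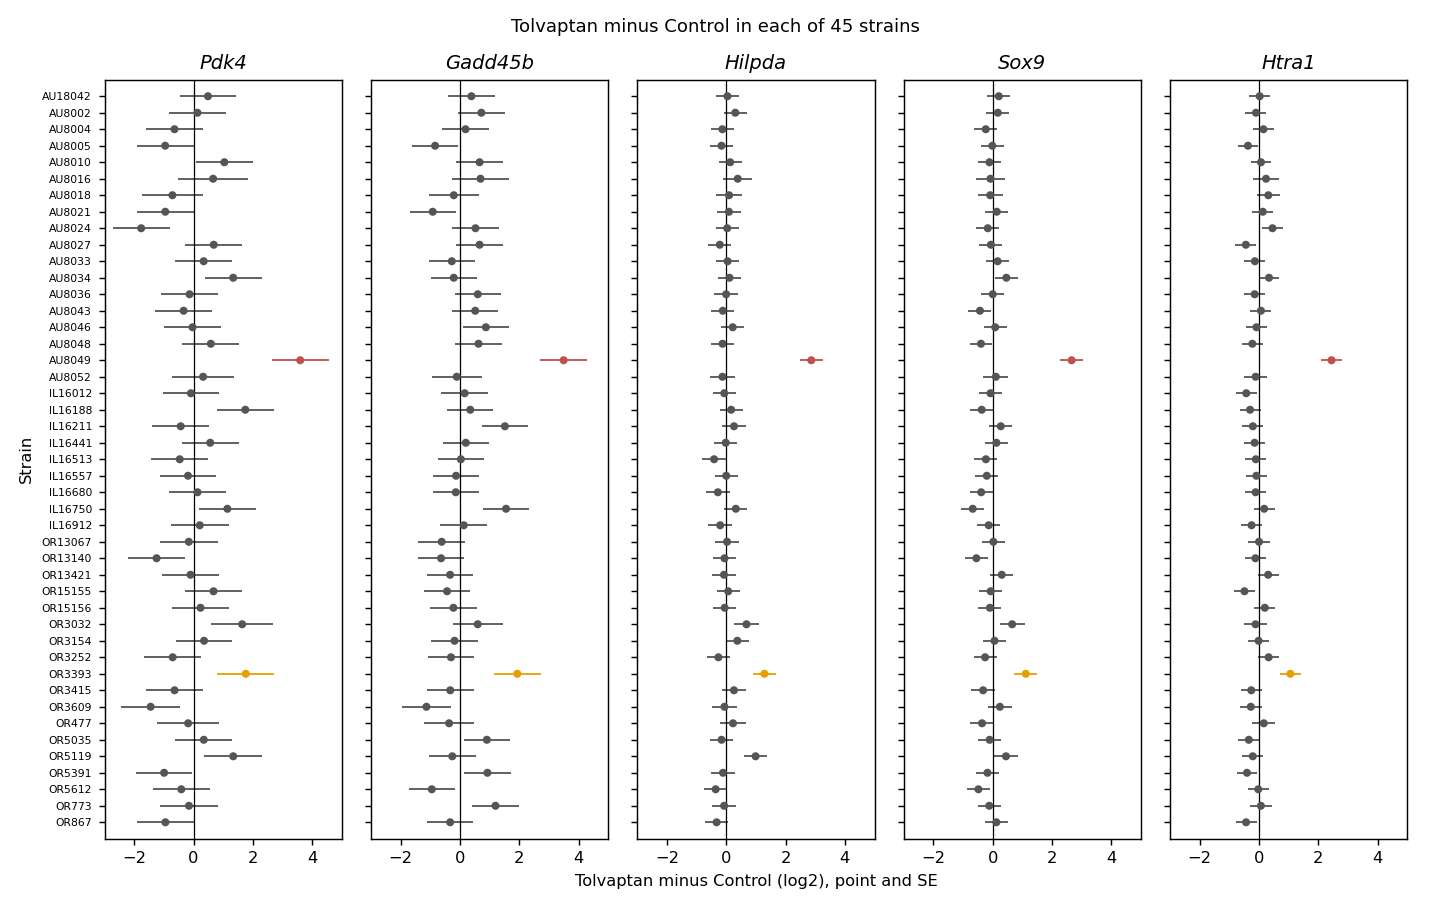
Tolvaptan minus Control (log2) of each gene in each of 45 strains, with points at the difference and lines for its SE, which rests on the spread pooled over all groups. AU8049 (red) lies right of every other strain in all 5 genes, OR3393 (orange) is the highest of the remaining 44, and the others scatter on both sides of 0.

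Under Control the 5 genes differed in how far strains stood apart. Gadd45b, Htra1 and Sox9 differed between the 44 strains (adjusted p = 5.64e-07, 1.94e-06 and 2.59e-04, limma moderated F test), and Pdk4 (adjusted p = 0.0526) and Hilpda (adjusted p = 0.581) were not called. So 3 of 5 were called, where 74.9% of all genes were. Pdk4 moved across the threshold with small changes in the arrays used, to 0.0108 without the arrays off their strain and to 0.0268 without animal 477.

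AU8049 itself was ordinary or low in Control animals. Of 45 strains ordered from the highest mean, it ranked 24 in Pdk4 (5.26 ± 1.61, SD, n = 4), 19 in Hilpda (4.48 ± 0.20), 41 in Gadd45b (4.78 ± 0.57), 42 in Sox9 (2.76 ± 0.19) and 43 in Htra1 (3.08 ± 0.24). The ranges of neighbouring strains in this order overlapped, which ordering by the mean largely fixes. Means below the array median of 2.89 are near background and have no order among themselves.

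Gadd45b was highest in IL16513 (7.99 ± 0.98, SD, n = 4), AU8048 (7.77 ± 0.61) and OR13067 (7.46 ± 0.45), and lowest in OR477 (4.60 ± 0.98), OR3415 (4.46 ± 0.20) and AU8016 (4.37 ± 0.40). Pdk4 was highest in AU8005 (7.01 ± 2.15), AU8048 (6.99 ± 1.43) and OR867 (6.91 ± 1.79), and lowest in AU8052 (4.0 ± 0.63, n = 3), OR477 (3.90 ± 0.59) and OR15156 (3.71 ± 0.30). AU8048 was thus among the 3 highest and OR477 among the 3 lowest in both of these genes. The typical SD within a strain was 1.32 for Pdk4 and 1.07 for Gadd45b, against ranges of strain means of 3.30 and 3.62.

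Sox9 was highest in OR5612 (4.19 ± 0.67), AU8048 (4.03 ± 0.21) and AU8043 (3.98 ± 0.55) and lowest in OR5119 (2.76 ± 0.47), OR15155 (2.74 ± 0.13) and AU8027 (2.58 ± 0.15). Htra1 was highest in OR5035 (4.55 ± 0.72), OR5391 (4.44 ± 0.41) and OR5612 (4.31 ± 0.57) and lowest in AU8049, AU8034 (3.06 ± 0.43) and OR477 (2.83 ± 0.35). Hilpda spanned the narrowest range of strain means, 1.02, from IL16513 (5.09 ± 0.59), IL16188 (4.96 ± 0.57) and OR13140 (4.94 ± 0.16) at the top to AU8010 (4.11 ± 0.31), IL16211 (4.10 ± 0.37) and IL16750 (4.08 ± 0.35). Of these groups, OR5119, OR15155, OR477, OR13067, OR867, AU8005, AU8034, IL16188, IL16211 and IL16750 hold 1 or 2 arrays off their strain.

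**Figure D4:**
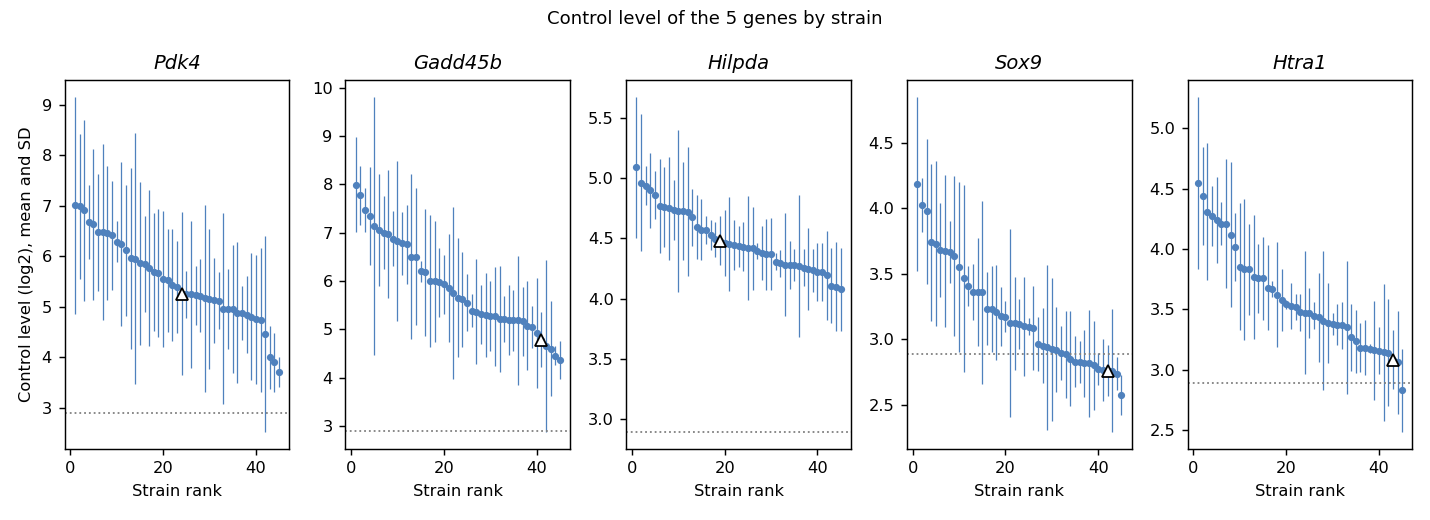
Control level (log2) of each gene in 45 strains, ordered from the highest mean, with lines for the SD over the animals and a triangle for AU8049. The strain means of Pdk4 span 3.30 and those of Hilpda 1.02, the dotted line is the typical array median of 2.89, and the axes differ between panels.

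Between animals of the same strain and treatment, Pdk4, Gadd45b and Hilpda moved together. Residuals from the strain and treatment means and the scan term were used for the 346 animals outside AU8049, with a permutation test of 100000 shuffles within strain and treatment and Benjamini-Hochberg adjustment over the 10 pairs of members. Pdk4 and Hilpda correlated at r = 0.59 (Spearman rho 0.54) and Pdk4 and Gadd45b at r = 0.56 (rho 0.54), both with p = 1e-05, the smallest these shuffles can give, and adjusted p = 3.33e-05, by either measure. Gadd45b and Hilpda correlated at r = 0.40 (rho 0.36, adjusted p = 3.33e-05 for each).

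These 3 relations did not rest on the high animals. With group means fitted again without animals 477 and 368, r was 0.52 for Pdk4 and Hilpda, 0.54 for Pdk4 and Gadd45b and 0.35 for Gadd45b and Hilpda, each with an adjusted permutation p of 3.33e-05. In Tolvaptan animals alone r was 0.66, 0.54 and 0.46, and in Control animals alone 0.53, 0.58 and 0.35. Within scans 1, 2, 3 and 4, Pdk4 and Hilpda had r of 0.64, 0.53, 0.45 and 0.69, and Pdk4 and Gadd45b 0.42, 0.56, 0.57 and 0.52, all called. Gadd45b and Hilpda had 0.25, 0.38, 0.27 and 0.35 within these scans, and the value in scan 3 was not called (adjusted permutation p = 0.155). Scan 1 held 1 array per group, so its shuffles ran across strains within a treatment. Scans 5 and 6 were not tested alone.

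Relations with Sox9 or Htra1 depended more on the animals used. The mean levels of these 2 genes, 3.21 and 3.60, lay near the typical array median of 2.89, where a level is near background. Sox9 was above the array median in 238 of 354 arrays and Htra1 in 333. A low r with either gene therefore cannot be read as an absence of co-variation. Hilpda and Sox9 correlated at r = 0.42 (rho 0.22, adjusted permutation p = 0.00482 and 0.0015). With group means fitted again, r was 0.15 without animal 477 (adjusted permutation p = 0.0493) and 0.17 without animals 477 and 368 (adjusted permutation p = 0.0267). It was called in Control animals alone (r = 0.24, adjusted permutation p = 0.0135) and within scan 4 (r = 0.26, adjusted permutation p = 0.0389), and was not called within scans 1, 2 or 3, in Tolvaptan animals alone (r = 0.51, adjusted permutation p = 0.122), or without replicate 2 or 3.

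Sox9 and Htra1 correlated at r = 0.22 (rho -0.06, adjusted permutation p = 0.277 and 0.364), and at -0.12 with group means fitted again without animal 477 (adjusted permutation p = 0.139). Within scan 3 their r was -0.28 (adjusted permutation p = 0.0348). The other 5 pairs, all with Sox9 or Htra1, had r between 0.11 and 0.32 and were not called (lowest adjusted permutation p = 0.0697).

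**Figure D5:**
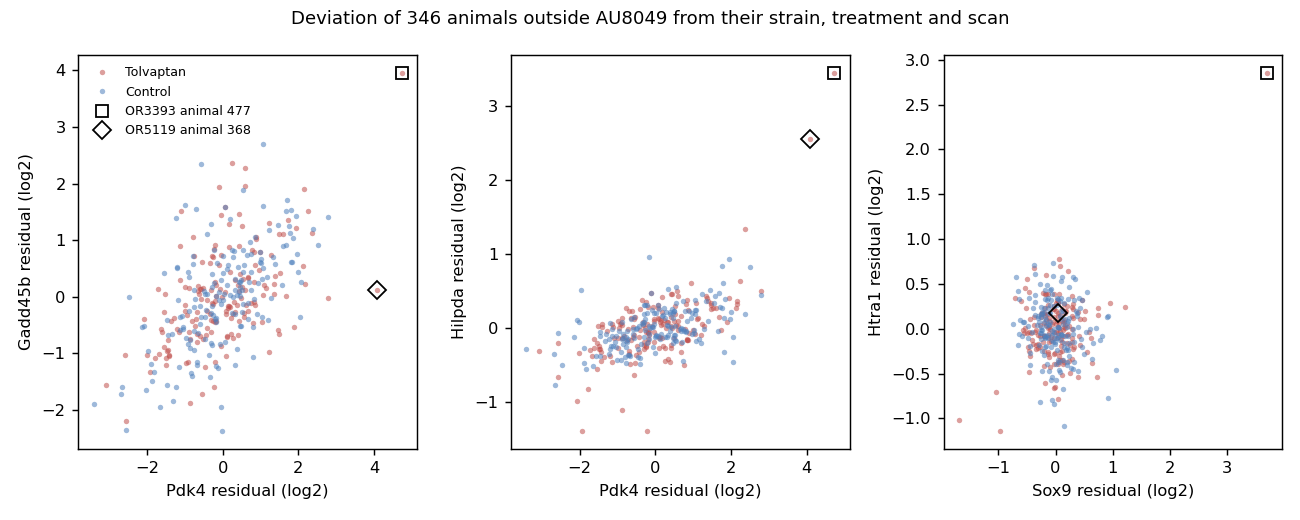
Residual of each of 346 animals outside AU8049 (log2) for Pdk4 against Gadd45b, Pdk4 against Hilpda and Sox9 against Htra1. The clouds of the first 2 panels slope upward (r = 0.56 and 0.59), and in the third panel animal 477 (square) is at the upper right and animal 368 (diamond) inside the cloud. Among the points at the lower left of the third panel are OR3393 animals 475, 476 and 478 (Sox9 residuals -1.04, -1.69 and -0.98), whose group mean holds animal 477.

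The genes most like each member in these residuals are given by r over the 346 animals, with no test. Those of Pdk4 were Desi2 (0.66), Cdkn1a (0.64), the repressor Nfil3 (0.62), the tubulin Tubb2a (0.62) and Pnrc1 (0.62). Hilpda stood at rank 10 of 14124 and Gadd45b at rank 17. Those of Gadd45b were the secreted IGF-binding protein Igfbp1 (0.61), the lipase inhibitor Angptl4 (0.59), Plin5 (0.59), Irf2bp2 (0.57) and Cdkn1a (0.56). Pdk4 stood at rank 7 and Hilpda at rank 77. With group means fitted again without animals 477 and 368, the 5 of Gadd45b were the same genes, and Desi2 and Cdkn1a remained among the 5 of Pdk4.

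Hilpda was most like the stress factor Atf3 (0.60), Pdk4 (0.59), the TWEAK receptor Tnfrsf12a (0.59), Zbtb21 (0.58) and Ets2 (0.57). Fitted again without animals 477 and 368, Pdk4 was first (0.52), and none of the other 4 remained among the 5. Sox9 was most like Cyp4f39 (0.44), Nfil3 (0.43), Zbtb21 (0.43), the monocarboxylate transporter Slc16a6 (0.42) and Hilpda (0.42), and only Nfil3 remained without the 2 animals. Htra1 was most like the calcineurin inhibitor Rcan1 (0.47), Cnksr3 (0.46), Snhg10 (0.45), Fgfrl1 (0.44) and Apold1 (0.43), and none of these remained.

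The pathways around the members had no called gene in the averaged difference over the 44 strains, where 0.552% of all genes were called. This held for all 9 pathway lists: the pyruvate dehydrogenase (9 genes tested), Gadd45 and kinase (9), hypoxia-inducible (22), lipid droplet (13), HTRA and TGF-beta (15), PPAR-alpha fasting (13), FOXO and glucocorticoid (13), immediate early and stress (15) and YAP and Notch (8) genes. List medians lay between -0.01 and 0.06, against 0.00 over all genes. The genes nearest to a call were Pdk3, another kinase of the complex (0.07, adjusted p = 0.0907, limma), Htra4 (0.11, 0.247), Myc (0.17, 0.387), the fatty acid hydroxylase Cyp4a10 (-0.18, 0.41), Ccn1 (-0.12, 0.465), Lcn2 (0.43, 0.501), Plin5 (-0.10, 0.522), Higd1a (-0.12, 0.555) and Map2k3 (0.05, 0.594). Of the cell type markers, Stab2 of sinusoidal endothelium fell by 0.19 (adjusted p = 0.00156, limma) and no other marker was called.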

How the data were processed

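Values are log2 expression per probe set, deposited by the authors; per the submitters' processing notes the Affymetrix Expression Console was used with RMA. Versions, and whether all arrays were normalized together, are not given in the sources used here. Of 42597 probe sets, 27691 had 1 gene symbol. Each gene was taken from its probe set with the highest mean and kept when above the array median in at least 4 arrays (14125 of 16670 genes). limma 3.58.1 in R 4.3.3 fitted group means (strain by treatment) and a term for the 6 scan dates, with two-sided tests and Benjamini-Hochberg adjustment at 0.05 over all genes. AU8049 was left out of averaged contrasts, but its arrays stayed in the fit. Replicate numbers follow accession order and pair nothing. Scan 1 held 90 arrays, 1 per group, and all 85 replicate 4 arrays were among them.

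The members and lists were chosen with earlier results of these data known. Named genes were the members, the 5 genes most alike to each, the called or nearest gene of each list and the 3 highest and lowest Control strains; genes and animals named beside the high animals were chosen after their values were seen. The limma and permutation steps were tested on simulated data. Arrays have no read depth; their number limits the precision. Alternatives covered filter, probe set rule, normalization, scan and arrays left out.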

Additional observations from a re-analysis of the deposited data

Results flagged for a closer look

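Within groups of 4 animals, a gap test for a single far value (Dixon, 95% level) was run on the members in the strains and groups whose values are given above. AU8049 was left out, as its values chose the members. The test marked 9 of 47 sets of values, against 29 of 415 (6.99%) over all groups of 4 animals outside AU8049, and chance marks about 1 in 20. Animals 477 and 368 were named for being high, so their marks are a description. OR3393 Tolvaptan animal 477 was marked high in Gadd45b (11.32), Sox9 (8.06) and Htra1 (7.57), and OR5119 Tolvaptan animal 368 in Hilpda (8.19). Of the Control animals, Sox9 was high in AU8043 animal 393 (4.81) and low in OR15155 animal 132 (2.55). Htra1 was low in OR5035 animal 243 (3.48) and in OR5612 animal 274 (3.47). Pdk4 was low in OR5119 animal 361 (3.78), whose array had the third highest spread of relative log expression.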

How the results depend on the processing

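No averaged difference of a member was called under any of 17 alternatives, and no dependence on strain under any of 13, but the sign of small differences changed. Pdk4 was -0.0205 in scan 1 alone and -0.0243 without OR3393 and OR5119, and between -0.00633 and 0.0783 when 1 replicate was left out. Gadd45b was -0.237 and Sox9 0.00261 in scan 1 alone. With all 45 strains Sox9 was 0.0305 and Htra1 0.0137, but this contrast holds the AU8049 values that chose the members. Called pairs of member and strain numbered 0 to 1 with 1 replicate left out. The count of all genes called for an averaged difference, 78 in all, was 44 without the arrays off their strain, 34 without OR3393 and OR5119, 16 with the strain as the unit, 126 in scans 2 to 6, 0 in scan 1 alone (limma, 373 at an unadjusted p under 0.05) and 2 to 131 with 1 replicate left out. That for dependence on strain, 5, was 26 without the arrays off their strain, 2 without OR3393 and OR5119, 3 with the mean of probe sets and 1 to 10 with 1 replicate left out. Alternatives without animals 477 and 368 or their strains, fitted again or not, were chosen after seeing the data.

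For strain differences under Control, the adjusted p of Pdk4 was 0.0108 without the arrays off their strain, 0.0472 without the 4 arrays of highest spread, 0.0498 without OR3393 and OR5119, 0.0268 without animal 477, and 0.0398 to 0.369 with 1 replicate left out. That of Sox9 was 5.37e-05 to 0.0528 with 1 replicate left out.

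Pdk4 and Sox9 had r = 0.26 without the arrays off their strain and 0.30 with the mean of probe sets, both called, -0.0192 within scan 1, -0.0326 within scan 3, and 0.075 to 0.268 with 1 replicate left out. Pdk4 and Htra1 had r = -0.0196 within scan 2, and Hilpda and Htra1 -0.0228; Hilpda and Htra1 had 0.34 with quantile normalization, a call. Gadd45b and Hilpda had r = 0.27 within scan 3. Gadd45b and Sox9 had rho = -0.0363, and r = -0.028 in Control animals, -0.19 within scan 1, -0.17 within scan 4, -0.0102 without animal 477, -0.0103 without animals 477 and 368 (rho -0.0454), -0.064 and -0.0641 (rho -0.0779) with group means fitted again without 1 or both, -0.021 without the 2 farthest animals, and -0.0613 to 0.20 with 1 replicate left out. Hilpda and Sox9 had r = 0.51 in Tolvaptan animals, 0.16, 0.23 and 0.15 within scans 1, 2 and 3, and 0.23 to 0.51 with 1 replicate left out. Sox9 and Htra1 had rho = -0.0603, and r = -0.17 in Control animals, -0.0472, -0.28 and -0.13 within scans 2, 3 and 4, -0.0066 without animal 477, -0.0069 without animals 477 and 368 (rho -0.0702), -0.1183 and -0.1186 (rho -0.101) with group means fitted again without 1 or both, and -0.0554 without the 2 farthest animals. With the halfway limit 3, 16, 2 and 1 animals reached it for Pdk4, Gadd45b, Hilpda and Htra1. The cause of these changes was not tested.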
